A study of Homo sapiens with 12 samples.

Results

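The ectonucleotidase genes ENTPD1 to ENTPD8 and NT5E were examined in RNA-seq data of K562 cells, 9 genes of the 60609 that the count tables list. The genes were chosen by family membership, and the family was picked because ENTPD2 rose after USP7 inhibition. The difference of ENTPD2 between the groups is therefore given as a description without a test. K562 is an established human line of chronic myeloid leukemia cells with erythroid features. Cultures received the solvent DMSO (3 libraries) or 10 μM FT671, which inhibits the deubiquitinase USP7 (3 libraries), and RNA was compared after 48 h. The labels name no genetic change, so both groups are the same single line under different agents, and one dose and one time point were measured. Total RNA was depleted of ribosomal RNA, and a value is the number of reads counted on a gene.

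Ectonucleotidases act on nucleotides that cells release. In the textbook order, an ENTPD enzyme at the cell surface removes phosphates from ATP and ADP, NT5E (CD73) turns the resulting AMP into adenosine, and adenosine then binds its own receptors or is taken up. ENTPD1 (CD39) takes ATP through ADP to AMP, while ENTPD2 strongly prefers ATP and so leaves ADP behind. ENTPD3 and ENTPD8 lie between these in their preference. ENTPD4, ENTPD5, ENTPD6 and ENTPD7 belong to the same family but work mainly inside the cell or in the secretory pathway, where hydrolysis of UDP and GDP accompanies the glycosylation of proteins. In blood, ENTPD1 is best known as the enzyme of lymphocytes, myeloid cells and endothelium.

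The libraries held 14250500, 10969971 and 5320245 counts in DMSO replicates 1 to 3 and 4555220, 5605776 and 11437804 in FT671 replicates 1 to 3. At these depths 3 counts, used as the floor of detection, corresponded to 0.211 to 0.659 CPM (counts scaled to a common library size), and this floor covers counting error only. On the second principal component of all tested genes (12.5% of the variance) DMSO replicate 3 stood at 25.1. Replicates 1 and 2 of its group stood at −12.1 and −14.9. The FT671 group was split as well, with replicate 1 at −16.1 and replicates 2 and 3 at 10.9 and 7.27. Results that change without DMSO replicate 3 are given both ways. The 10 erythroid genes that mark K562 (globins, GATA1, KLF1 and others) were all detected, with sums of 1604 to 1642 CPM in DMSO and 1497 to 1520 CPM after FT671. Markers of other cells that carry ectonucleotidases were low or rested on 1 gene. The T cell list (CD2, CD3D, CD3E, CD3G) summed to 17.0 to 20.5 CPM in DMSO and 24.0 to 29.3 CPM after FT671, almost wholly CD3D, with CD2 at 0 counts in all libraries. The monocyte list (CD14, CSF1R, LYZ) summed to 51.2 to 54.0 CPM and 72.2 to 76.0 CPM, almost wholly LYZ, with CD14 at no more than 1 count in any library. The sums of the B cell, stromal and endothelial lists overlapped between the groups, and MS4A1, COL3A1 and CDH5 had 0 counts throughout. Both the T cell and the monocyte sum were higher after FT671, as was ENTPD2, and their part in the ENTPD results was not tested.

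After FT671 the K562 cells held more ENTPD2 RNA and less RNA of ENTPD4, ENTPD6 and ENTPD7, while NT5E was not detected in either group. Of the members other than ENTPD2, 6 passed the filter on low counts and were tested across all 13895 genes. Of these 6, 0 were called higher and 3 lower at an adjusted p of 0.05 (quasi-likelihood test of edgeR, p adjusted by Benjamini-Hochberg). Over all genes tested, 23.6% were called higher and 26.5% lower, so calls were common in this comparison and nothing is read from the share among 6 genes. At an unadjusted p of 0.05, 1 of the 6 was higher (ENTPD1), and DESeq2's Wald test also called 0 higher. At the stricter adjusted p of 1e-05 used in the study's methods, 1 member was lower (ENTPD4), beside 4.13% of all genes lower and 1.79% higher. Levels by library are plotted for the 8 members with counts.

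**Figure D1:**
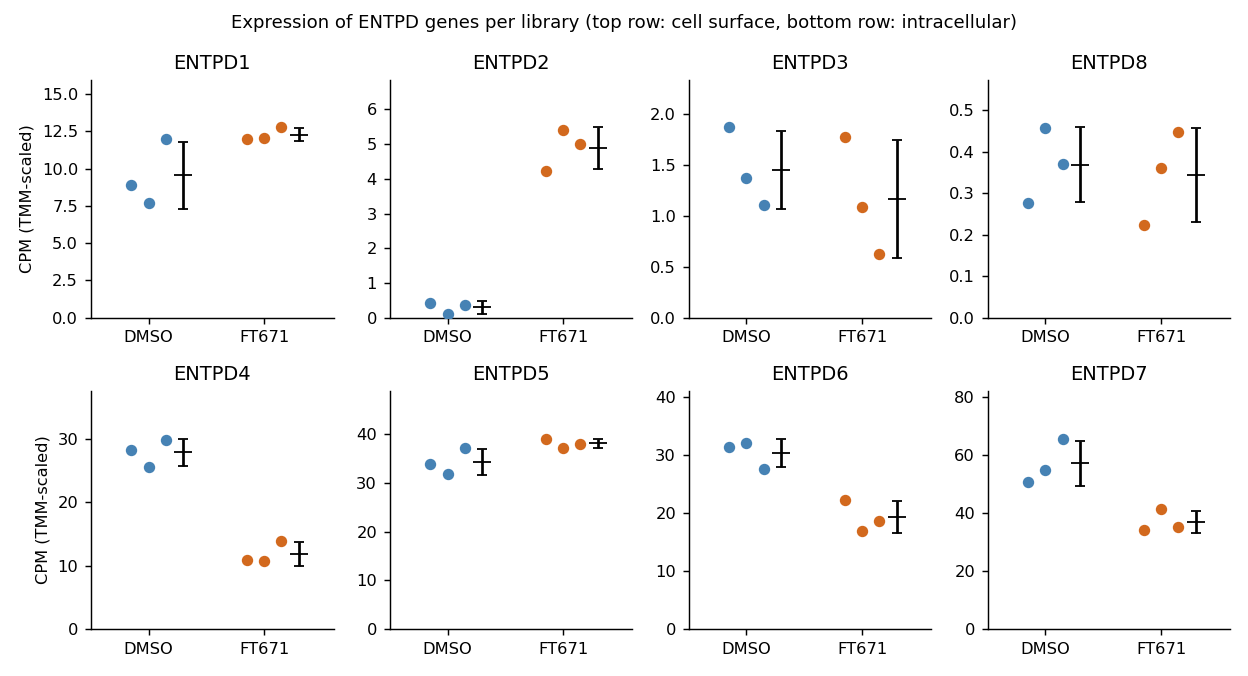
Expression of the 8 ENTPD genes in CPM (TMM-scaled library sizes, vertical axis from 0, scale differs by panel) in the 3 DMSO (blue) and 3 FT671 (orange) libraries, ordered left to right by replicate number, with the mean and SD in black. ENTPD2 lies between 4.22 and 5.41 CPM after FT671 against at most 0.415 CPM in DMSO, and ENTPD4, ENTPD6 and ENTPD7 lie lower after FT671 in every library.

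ENTPD2 (ENSG00000054179) lies on the minus strand of chromosome 9 from 137048107 to 137054061 in hg38. It had 6, 1 and 2 counts in DMSO replicates 1 to 3 and 19, 30 and 56 counts in FT671 replicates 1 to 3. Scaled by library, these were 0.415, 0.0916 and 0.370 CPM in DMSO and 4.22, 5.41 and 5.005 CPM after FT671. In DMSO the gene was thus at or near the floor of detection, and every FT671 library lay above every DMSO library. The means were 0.292 ± 0.175 and 4.88 ± 0.606 CPM (SD, n = 3 each), and the fitted log2 fold change was 4.01. Pooled over libraries, 9 counts in DMSO against 105 after FT671 gave a depth-scaled ratio of 16.9. Because so few counts stand behind the DMSO level, the fold rests on single libraries, and the log2 fold change was 4.61 without DMSO replicate 1 and 3.57 without DMSO replicate 2. By size it ranked 1 of 13895 genes, which is the reason the family was chosen. No exon base of ENTPD2 is shared with another annotated gene, and the lncRNA ENSG00000236394, which lies within it on the opposite strand, had 0 counts in all libraries. These counts therefore have no annotated overlapping source, although the strand setting of the counting is not given in the sources used here.

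The promoter of ENTPD2 is shown because it is the start region of the member with the rise. Those of ENTPD7 and ENTPD6, which fell, are shown for comparison. ENTPD4, the tested member with the largest fall, had no entry in the promoter set. The sequences are from RefSeq (GRCh38.p14), each from 250 bases before to 50 bases after an annotated start, at chr9:137054012-137054311 on the minus strand, chr10:99659259-99659558 on the plus strand and chr20:25195462-25195761 on the plus strand. They are written 5′ to 3′ along the gene, and capitals mark GGGCGG, the core of the GC box bound by Sp1-type factors, on either strand.
ENTPD2: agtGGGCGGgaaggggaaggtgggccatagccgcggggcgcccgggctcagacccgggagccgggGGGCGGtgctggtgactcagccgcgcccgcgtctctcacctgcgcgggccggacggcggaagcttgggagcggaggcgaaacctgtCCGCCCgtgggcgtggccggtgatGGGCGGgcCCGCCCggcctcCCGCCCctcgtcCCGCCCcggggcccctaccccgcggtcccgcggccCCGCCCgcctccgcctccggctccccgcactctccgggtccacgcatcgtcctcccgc
ENTPD7: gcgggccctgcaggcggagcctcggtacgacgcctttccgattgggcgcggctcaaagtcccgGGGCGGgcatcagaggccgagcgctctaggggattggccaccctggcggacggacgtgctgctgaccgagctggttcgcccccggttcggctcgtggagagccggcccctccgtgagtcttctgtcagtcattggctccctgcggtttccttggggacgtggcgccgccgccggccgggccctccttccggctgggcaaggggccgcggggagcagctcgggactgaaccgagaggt
ENTPD6: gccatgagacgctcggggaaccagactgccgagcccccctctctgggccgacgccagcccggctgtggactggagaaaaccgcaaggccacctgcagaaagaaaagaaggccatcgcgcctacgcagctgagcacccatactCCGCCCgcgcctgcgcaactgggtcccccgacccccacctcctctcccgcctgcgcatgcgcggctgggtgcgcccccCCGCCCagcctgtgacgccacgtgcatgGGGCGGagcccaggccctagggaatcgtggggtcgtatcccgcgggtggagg
The ENTPD2 window had 80.0% G and C, which placed it at percentile 97.4 of 35116 promoters of the same length (median 58.7%), and it held 43 CpG dinucleotides. It held 8 GGGCGG matches, against 1 in the ENTPD7 window and 3 in the ENTPD6 window shown. A further window of each, not shown, held 0 matches for ENTPD7 and 2 for ENTPD6. Of all promoters, 45.0% held at least 1 match and 0.812% held 8 or more. The window of ENTPD5, which was not called changed, held 3 matches, those of ENTPD3, ENTPD8 and NT5E held 4, 5 and 2, and the 5 windows of ENTPD1 held 0. A match in letters is a description of the sequence. ENTPD2 had the most matches of the members with a window, and the windows of the lowered ENTPD6 and ENTPD7 had no more than those of ENTPD3 and ENTPD8. The ENTPD2 window also held 1 match to TGANTCA, the AP-1 motif, which 7.71% of promoters held, and no match to the E-box CACGTG, which 7.26% held.

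The other enzymes of the cell surface are ENTPD1, ENTPD3 and ENTPD8. ENTPD1 (ENSG00000138185, chromosome 10 from 95711779 to 95877266, plus strand) had 8.93, 7.69 and 12.02 CPM in DMSO and 11.99, 12.1 and 12.8 CPM after FT671. DMSO replicate 3 reached the level of the FT671 libraries, so the groups overlapped. The log2 fold change was 0.42 (SE 0.169, adjusted p = 0.0504 by edgeR), with an unadjusted 95% interval of 0.06 to 0.78. Without DMSO replicate 3 it was 0.56 and was called higher (adjusted p = 0.00341 by edgeR), and it was also called under other alternatives given in the closing section. ENTPD1 shares 41.0% of its exon bases with other genes, chiefly with the antisense gene ENTPD1-AS1. That antisense gene had a log2 fold change of 0.32 (adjusted p = 0.0989 by edgeR), and without DMSO replicate 3 it too was called higher (0.40, adjusted p = 0.0271 by edgeR). Without a stated strand setting the reads of the pair cannot be told apart in the shared part.

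ENTPD3 had few counts, and ENTPD8 was near the floor. ENTPD3 (ENSG00000168032, chromosome 3 from 40387184 to 40428744) had 27, 15 and 6 counts in DMSO and 8, 6 and 7 after FT671, or 1.45 ± 0.386 and 1.16 ± 0.580 CPM (SD, n = 3 each). Its groups overlapped, and the log2 fold change of −0.60 had a wide unadjusted 95% interval of −1.48 to 0.28 (adjusted p = 0.240 by edgeR). ENTPD8 (ENSG00000188833, chromosome 9 from 137434364 to 137441816) had 4, 5 and 2 counts in DMSO and 1, 2 and 5 after FT671 and did not pass the filter. Pooled, its 11 and 8 counts gave a ratio of 1.05 with an exact 95% counting interval of 0.368 to 2.88, and a difference within this range was not detectable at this depth. ENTPD8 and ENTPD2 lie on the same chromosome arm with starts 388 kb apart.

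NT5E (ENSG00000135318, chromosome 6 from 85449584 to 85495791), the enzyme that forms adenosine from AMP at the surface, had 0 counts in all 6 libraries. A count of 0 allows up to 0.0982 CPM over the pooled DMSO libraries and up to 0.139 CPM over the pooled FT671 libraries. No exon of NT5E is shared with another gene. In these cells the rise of ENTPD2 RNA was therefore measured without detectable RNA of the next enzyme of the cascade at this depth.

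Of the 4 mainly intracellular members, 3 were called lower and 1, ENTPD5, was not called, beside 26.5% of all genes called lower. Nothing is read from the share among 4 genes. ENTPD4 (ENSG00000197217, chromosome 8 from 23385783 to 23457695, minus strand), a UDPase of the Golgi and lysosomes, had 28.3, 25.5 and 29.8 CPM in DMSO and 10.9, 10.6 and 13.9 CPM after FT671. It fell by 1.18 on the log2 scale (SE 0.135, adjusted p = 8.16e-06 by edgeR), from 27.8 ± 2.18 to 11.8 ± 1.84 CPM (SD, n = 3 each). All FT671 libraries lay well below all DMSO libraries, and the level in DMSO was 2.35 times that after FT671. Only 1.70% of its exon bases are shared with another gene, LOXL2, which had a mean of 1.47 CPM in DMSO.

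ENTPD6 (ENSG00000197586, chromosome 20 from 25195693 to 25228075), which is found in the Golgi and in secreted form, had 31.4, 32.1 and 27.5 CPM in DMSO and 22.2, 16.8 and 18.6 CPM after FT671. It fell by 0.68 on the log2 scale (SE 0.123, adjusted p = 0.000395 by edgeR), and the groups did not overlap. Within its last part lies ENSG00000279322 on the opposite strand, an unclassified transcript of 288 exon bases that are all shared with ENTPD6 exons. This transcript fell as well, with a log2 fold change of −1.08 (adjusted p = 0.00683 by edgeR), from 5.15 to 2.51 CPM. Its groups overlapped, and the call was lost after thinning to equal depth (−0.75, adjusted p = 0.112 by edgeR). The shared bases make up 4.32% of the ENTPD6 exons.

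ENTPD7 (ENSG00000198018, chromosome 10 from 99659509 to 99711241), an enzyme of intracellular vesicles, was the member with the highest level per exon length. It had 50.8, 54.9 and 65.6 CPM in DMSO and 34.2, 41.3 and 35.3 CPM after FT671, and the groups did not overlap. It fell by 0.62 on the log2 scale (SE 0.116, adjusted p = 0.000568 by edgeR). CUTC, a copper-handling gene that overlaps ENTPD7 on the same strand by 116 exon bases, went the other way, with a log2 fold change of 0.70 (adjusted p = 0.0014 by edgeR). COX15, which overlaps it on the opposite strand, had a log2 fold change of 0.10 and was not called. ENTPD7 and ENTPD1 are both on the long arm of chromosome 10, and the signs of their fold changes differed.

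ENTPD5 (ENSG00000187097, chromosome 14 from 73958010 to 74019399, minus strand) is a UDPase of the endoplasmic reticulum that removes the UDP left by glucosylation of unfolded glycoproteins. It had 33.8, 31.9 and 37.2 CPM in DMSO and 39.1, 37.2 and 38.1 CPM after FT671. Every FT671 library lay above every DMSO library, by a very small margin at the nearest pair. Such separation upward was found for 26.8% of all tested genes and downward for 30.3%, and ENTPD5 was not called (log2 fold change 0.16, SE 0.100, adjusted p = 0.197 by edgeR). Its unadjusted 95% interval of −0.05 to 0.38 lies above the fold changes of the 3 other intracellular members. Of its exon bases, 23.2% are shared with genes on the opposite strand, chiefly COQ6, whose log2 fold change was −0.11 and not called.

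Levels of different genes were compared per length, as CPM per kb of the union of annotated exons. In DMSO the order was ENTPD7 at 6.60, ENTPD6 at 4.54, ENTPD4 at 3.94, ENTPD5 at 3.48, ENTPD1 at 0.666, ENTPD3 at 0.405, ENTPD8 at 0.130 and ENTPD2 at 0.111 CPM per kb, with NT5E at 0. The libraries of ENTPD6 and ENTPD4, of ENTPD4 and ENTPD5 and of ENTPD8 and ENTPD2 overlapped. Compared within DMSO replicates 1 to 3, ENTPD4 at 4.01, 3.61 and 4.22 was above ENTPD5 at 3.43, 3.24 and 3.78 CPM per kb. The other pairs changed order between libraries, so they did not differ beyond their spread. After FT671 the order was ENTPD7 at 4.27, ENTPD5 at 3.87, ENTPD6 at 2.88, ENTPD2 at 1.85, ENTPD4 at 1.68, ENTPD1 at 0.857, ENTPD3 at 0.324 and ENTPD8 at 0.121 CPM per kb. Here ENTPD7 and ENTPD5 overlapped, as did ENTPD2 and ENTPD4. With the length of the longest transcript in place of the exon union, ENTPD6 stood first in DMSO and ENTPD5 stood first after FT671, so the order among the 4 intracellular members depends on the length used. ENTPD2 stood next after the 3 leading members in FT671 under both lengths.

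Summed per length, the 4 surface ENTPD genes had 1.31 ± 0.169 in DMSO and 3.15 ± 0.159 CPM per kb after FT671 (SD, n = 3 each). Without ENTPD2, the sum of ENTPD1, ENTPD3 and ENTPD8 was 1.20 ± 0.105 and 1.30 ± 0.0969 CPM per kb, with overlapping libraries, so the difference of the surface sum lay mostly in ENTPD2, the gene for which the family was picked. The intracellular sum went from 18.6 ± 0.982 to 12.7 ± 0.111 CPM per kb, and the whole family from between 19.1 and 21.1 to between 15.8 and 15.9 CPM per kb. ENTPD2 made up 0.182% to 0.811% of the family sum in DMSO and 10.1% to 12.9% after FT671. The surface members together made up 5.84% to 7.21% and 19.0% to 20.9%. Read counts in bulk RNA do not tell fewer cells with a transcript from less transcript per cell.

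**Figure D2:**
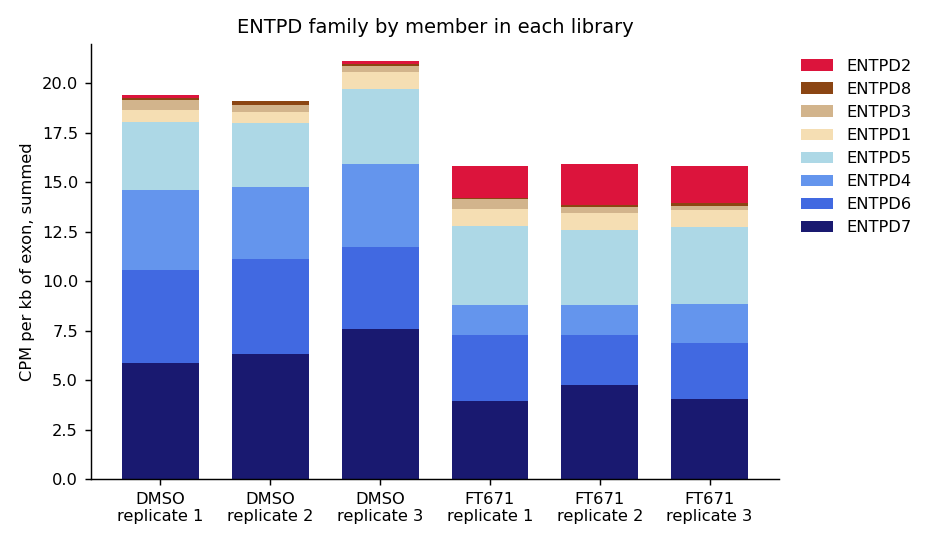
Stacked CPM per kb of exon (vertical axis from 0) of the 8 ENTPD genes with counts in each of the 6 libraries, intracellular members in blue shades and surface members in tan and red shades. ENTPD2 (red) is barely visible in DMSO and makes up 10.1% to 12.9% of the bar after FT671, while the whole bar is lower.

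The genes around ENTPD2 did not move as a block. Of 13 annotated genes that start within 50 kb of its start, 8 were tested, 3 were higher and 4 were lower, beside 23.6% higher and 26.5% lower among all genes. The nearest tested start on the side along ENTPD2's transcription, 7.88 kb away, belongs to NPDC1, a gene described in neural differentiation. NPDC1 had 28, 13 and 6 counts in DMSO and 21, 25 and 38 after FT671, and it rose from 1.41 ± 0.457 to 4.19 ± 0.692 CPM (SD, n = 3 each; log2 fold change 1.41, SE 0.292, adjusted p = 0.00115 by edgeR). ABCA2, a lipid transporter gene starting 25.1 kb away on the same side, rose from 34.4 ± 2.23 to 59.0 ± 4.68 CPM (log2 fold change 0.76, adjusted p = 2.7e-05 by edgeR). Both lie on the minus strand like ENTPD2. In both, every FT671 library was above every DMSO library, as in 26.8% of all tested genes.

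On the other side the tested starts nearest to ENTPD2 were lower. The lncRNA ENSG00000229257, which starts 3.60 kb away and runs in the opposite direction, had 40, 32 and 16 counts in DMSO and 5, 4 and 11 after FT671 (log2 fold change −1.59, adjusted p = 0.000697 by edgeR). Of its exon bases, 44.5% are shared with SAPCD2 on the other strand. The lncRNA ENSG00000231864 had a log2 fold change of −0.78 (adjusted p = 0.00635 by edgeR), but all of its exon bases lie in exons of SAPCD2 on the other strand. SAPCD2, a cell polarity gene, fell by 0.86 on the log2 scale (adjusted p = 8.6e-05 by edgeR) from 47.1 to 26.7 CPM. Farther out, UAP1L1 was not called (0.11), MAN1B1-DT had a log2 fold change of 1.10 on few counts (5 to 14 per library, adjusted p = 0.0304 by edgeR), and MAN1B1 fell by 0.44 on the log2 scale. The call of MAN1B1-DT was lost by DESeq2's Wald test and without DMSO replicate 1 (1.23), DMSO replicate 2 (0.99), FT671 replicate 1 (0.85) or FT671 replicate 2 (1.02), and that of ENSG00000231864 without FT671 replicate 3 (−0.54). The remaining 5 genes in the window did not pass the filter.

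Genes that act around the ectonucleotidases were grouped into 9 lists with 123 genes. Of these, 30 had no count in any library, 71 were tested, 16 were higher and 23 lower. Among all tested genes 23.6% were higher and 26.5% lower, and the counts for the whole set lie near these shares. Their median log2 fold change was −0.09, against −0.01 for all tested genes. Calls in both directions were found. Fold changes of all 71 genes are plotted by list.

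Among other enzymes of the surface and secretory route that hydrolyse nucleotides, 3 of 13 genes were tested. ALPL, the tissue-nonspecific alkaline phosphatase, which can take nucleotides down to the nucleoside, had 0.485, 0.824 and 1.11 CPM in DMSO and 3.33, 3.25 and 4.02 CPM after FT671. The groups did not overlap, and the log2 fold change was 2.30 (SE 0.330, adjusted p = 6.2e-05 by edgeR). CANT1, a nucleotidase of the endoplasmic reticulum and Golgi that prefers UDP, fell from 64.9 ± 2.76 to 33.4 ± 2.25 CPM (SD, n = 3 each; log2 fold change −0.95, adjusted p = 2.64e-06 by edgeR). ENPP3, the other tested gene of this list, was not called (log2 fold change 0.15, adjusted p = 0.291 by edgeR). ENPP1 did not pass the filter on low counts, with 0, 0 and 1 counts in DMSO and 5, 4 and 10 after FT671. None of the 6 NAD-consuming ectoenzymes, CD38 included, passed this filter.

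Of the 11 other 5′-nucleotidase genes, 9 were tested, with 3 higher and 3 lower, beside 23.6% higher and 26.5% lower among all genes. NT5C1A and NT5C1B had 0 counts in all libraries like NT5E. The pyrimidine nucleotidases NT5C3B and NT5C3A had log2 fold changes of 0.61 and 0.55, with adjusted p = 2.77e-05 and 0.0199 by edgeR, and NT5C had 0.39 (adjusted p = 0.018 by edgeR). NT5C shares 60.2% of its exon bases with genes on the opposite strand, and its call was lost without FT671 replicate 2 (0.34). The call of NT5C3A was lost without DMSO replicate 1 (0.38), DMSO replicate 2 (0.51), FT671 replicate 2 (0.46) or FT671 replicate 3 (0.56) and after thinning to equal depth (0.36). NT5DC2, a family member by sequence, fell from 92.6 ± 4.68 to 25.8 ± 3.45 CPM (SD, n = 3 each; log2 fold change −1.86, adjusted p = 2.59e-08 by edgeR). NT5C2, the cytosolic enzyme that prefers IMP and GMP, fell by 0.68 and NT5DC3 by 0.62 on the log2 scale. NT5C2 shares 34.8% of its exon bases with genes on the opposite strand.

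Of the receptors for adenosine, 1 of 4 was tested. ADORA2B, the low-affinity receptor, had 10.4, 8.52 and 10.5 CPM in DMSO and 7.55, 7.22 and 4.74 CPM after FT671 (log2 fold change −0.66, SE 0.199, adjusted p = 0.013 by edgeR). The groups did not overlap, although the call was lost without DMSO replicate 1 (−0.60) or FT671 replicate 3 (−0.40). Of the 17 P2 receptors, which bind ATP, ADP and UDP-sugars, 7 were tested. Of these, 1 was higher and 2 were lower, beside 23.6% and 26.5% of all genes. The ATP-gated channel P2RX1 fell from 28.6 ± 1.88 to 17.0 ± 1.44 CPM (SD, n = 3 each; log2 fold change −0.76, adjusted p = 0.000105 by edgeR), and P2RX4 fell by 0.35. The call of P2RX4 was lost without DMSO replicate 2 (−0.29) or FT671 replicate 3 (−0.31), by DESeq2's Wald test and with a correction for gene length. P2RY11 had a log2 fold change of 0.52 (adjusted p = 0.000411 by edgeR), but 61.3% of its exon bases are shared with PPAN, a PPAN readthrough gene and EIF3G, so its reads are uncertain.

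Among the genes that take up or deaminate adenosine, 3 rose by more than 1 on the log2 scale. SLC29A2, an equilibrative nucleoside transporter, had 35.5, 35.1 and 31.8 CPM in DMSO and 78.0, 76.5 and 76.7 CPM after FT671 (log2 fold change 1.16, SE 0.0889, adjusted p = 2.3e-07 by edgeR). SLC29A4, a transporter of monoamines and adenosine, rose by 1.14 from 2.19 to 4.91 CPM. SLC29A3, the lysosomal member, fell by 0.57, a call lost without DMSO replicate 2 (−0.43) or FT671 replicate 3 (−0.40). ADA, which deaminates adenosine to inosine, had 17.7, 19.7 and 12.6 CPM in DMSO and 40.6, 39.0 and 42.9 CPM after FT671 (log2 fold change 1.26, SE 0.135, adjusted p = 4.8e-06 by edgeR). Every FT671 library lay above every DMSO library for SLC29A2, SLC29A4 and ADA, as for 26.8% of all tested genes.

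In the list of adenosine and AMP metabolism, 18 of 23 genes were tested, 8 were higher and 2 lower, beside 23.6% and 26.5% of all genes, and the median log2 fold change was 0.36. Without DMSO replicate 3, 4 were lower. NME1, a nucleoside diphosphate kinase, rose from 84.7 ± 4.91 to 188 ± 14.9 CPM (SD, n = 3 each; log2 fold change 1.15, adjusted p = 1.47e-07 by edgeR). NME1 shares 18.7% of its exon bases with a readthrough gene that had no counts. AK7 fell by 1.38 from a level of 1.90 CPM in DMSO, a call lost without FT671 replicate 2 (−1.16) and by DESeq2's Wald test, and the AMP deaminase AMPD3 fell by 0.62.

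Of 20 channels and transporters for the release of nucleotides, 8 were tested, 5 were lower and 0 higher, beside 26.5% and 23.6% of all genes, and 0 were higher at an unadjusted p of 0.05 or by DESeq2's Wald test. PANX2 had 19.7, 20.7 and 17.4 CPM in DMSO and 5.77, 3.25 and 6.52 CPM after FT671 (log2 fold change −1.84, SE 0.190, adjusted p = 3.52e-06 by edgeR). PANX1, the pannexin best known as an ATP release channel, fell from 12.02 ± 0.222 to 7.02 ± 0.652 CPM (SD, n = 3 each; log2 fold change −0.79, adjusted p = 0.000659 by edgeR). LRRC8C, a subunit of volume-regulated anion channels, fell by 0.57 on the log2 scale (adjusted p = 0.00314 by edgeR).

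The intracellular members act beside genes that make, carry or use nucleotide sugars in the secretory pathway. Of 22 such genes, listed together with the chaperones CALR and CANX, 21 were tested, 8 were lower and 1 was higher, beside 26.5% and 23.6% of all genes. The 8 lower genes were not all transporters, since UGP2, which makes UDP-glucose, CALR and CANX were among them. Without DMSO replicate 3, 2 genes of the list were higher. SLC35B4, SLC35B2 and SLC35A2, which carry nucleotide sugars or the sulfate donor into the Golgi or endoplasmic reticulum, had log2 fold changes of −0.96, −0.73 and −0.59, with adjusted p = 2.68e-05, 6.2e-05 and 0.00183 by edgeR. UGGT1, the glucosyltransferase whose UDP product ENTPD5 hydrolyses, had a log2 fold change of 0.43 (adjusted p = 0.00314 by edgeR), from 159 ± 25.7 to 212 ± 16.1 CPM (SD, n = 3 each). The median of the list was −0.26, so ENTPD4, ENTPD6 and ENTPD7 were lower by more than the middle gene of the list and ENTPD5 was not.

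Over the 6 libraries, the genes outside the family whose log2 CPM followed ENTPD2 most closely were RTN4RL1 and PLAUR (Pearson's r = 0.999 each), CDK2AP1 (0.997), HSPD1 (0.996) and LYZ (0.996). PLAUR encodes the urokinase receptor, HSPD1 a mitochondrial chaperonin and LYZ lysozyme. LYZ and CDK2AP1 share 34.7% and 24.2% of their exon bases with genes on the opposite strand. Of 13859 genes compared, 775 had r above 0.95, since the difference between the groups dominates any such correlation, and r is given as a description. The log2 fold changes of the 5 named genes were 1.09, 0.70, 0.40, 0.58 and 0.49 in the order named. That these lie below the value of ENTPD2 follows from its choice, since it ranked 1 of 13895 genes. With a prior count of 0.5 in place of 2 only 1 of the 5 remained among the top 5, so the choice rests on how the low DMSO counts of ENTPD2 are treated.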

How the data were processed

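RNA-seq of 3 DMSO and 3 FT671 libraries of K562 was used. The deposited values are raw read counts per gene, without normalization, which the authors obtained by aligning paired-end reads to hg38 with STAR. The STAR version, annotation release and strand setting are not given in the sources used here. Of 60609 Ensembl identifiers, 60295 were matched to GENCODE release 44. ChIP-seq samples of the series were not analysed here.

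Groups came from the sample labels, and the study speaks of independent experiments. Genes were filtered with edgeR's filterByExpr, libraries were scaled by TMM, and the groups were tested against each other with the quasi-likelihood test of edgeR and no covariate, with Benjamini-Hochberg adjustment over 13895 genes. SE is the log2 fold change divided by the square root of F. The computations used R 4.3.3, edgeR 4.0.16, limma 3.58.1, DESeq2 1.42.0, Python 3.11.15 and SciPy 1.17.1. The fit was tested on simulated data. Totals of 4555220 to 14250500 counts set the precision for low genes.

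The members and lists were chosen with earlier results of these data known. Named genes were the members, genes overlapping them or starting within 50 kb of ENTPD2, up to 3 rises and 3 falls per list (adjusted p of 0.05, mean of at least 1 CPM), and the 5 genes most correlated with ENTPD2 (log2 CPM, prior count 2, mean of at least 1 CPM). Marker genes served to check the cell type. Some genes that the rule names are not reported here. Alternatives were DESeq2's size factors, library totals, other filters, protein-coding genes alone, DESeq2's Wald test, a replicate block, length and GC corrections (loess span 0.3), thinning to 4555220 counts, leaving out each library and a threshold of 1e-05.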

Additional observations from a re-analysis of the deposited data

How the results depend on the processing

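ENTPD4, ENTPD6 and ENTPD7 were lower in all 18 alternative fits, with log2 fold changes of −1.36 to −1.01, −0.77 to −0.54 and −0.70 to −0.48. The number of other members called lower was 3 in each of these fits and in each fit without 1 library, and 1 at an adjusted p of 1e-05. The number called higher was 0, but 1 with DESeq2's size factors, with at least 10 counts in every library, with protein-coding genes alone and with GC correction, without or with replicate block, and 2 with gene length correction, without or with replicate block. Leaving out 1 library gave 0 to 1, the 1 being without DMSO replicate 3. ENTPD1 accounted for these calls, joined by ENTPD5 under length correction (log2 fold change 0.31, adjusted p = 0.0132 by edgeR). The causes were not tested. ENTPD2 stood at 3.57 to 4.61 over 17 fits. Pathway genes called higher and lower numbered 16 and 23, and 4 and 3 at 1e-05. All-gene calls at 1e-05 were 249 higher and 574 lower, against 3276 and 3687. Among 49 named genes outside the family, 822 of 856 alternative values kept direction and side of the threshold, 27 lost and 5 gained a call, and 2 uncalled values changed sign: COQ6 at 0.022 with gene length correction and replicate block, and UAP1L1 at −0.13 after thinning. Scaling moved the median of all genes by less than 0.1.

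The replicate number alone was not taken as a pairing. Across genes, which are not independent, deviations in same-numbered libraries correlated at 0.115, −0.0605 and 0.14, and FT671 replicate 1 correlated best with DMSO replicate 2 (0.125). With the replicate block, 0 other members were higher and 3 lower, and 18 pathway genes were higher and 25 lower. Depth limits ENTPD2 in DMSO, ENTPD3, ENTPD8 and NT5E, which rest on few or no counts.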
